A study of Mus musculus with 15 samples.

Results

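The genes described here carry cholesterol out of liver cells or handle the lipoproteins that hold it. They are 10 genes chosen by name for these functions, Abca1, Abcg1, Abcg5, Abcg8, Scarb1, Lcat, Pltp, Mttp, Soat2 and Npc1, among 18193 genes tested. Of the 10, 9 had at least 1 probe set (a set of short probes that reads 1 transcript), with 16 probe sets in all. Soat2, the enzyme that esterifies cholesterol in hepatocytes, is paired with no probe set in the annotation used here and was not analysed. Liver RNA had been hybridised to Affymetrix mouse arrays from 15 male mice, 5 in each of 3 groups, each array being 1 mouse. The XKA-H group was KKAy mice on a high-fat diet that were given Xiao-Ke-An (XKA), a herbal medicine of several plants, by mouth once daily at 1.5 g/kg for 32 days. The KKAy model group was KKAy mice on the same diet that were given distilled water. The C57BL/6J group was chow-fed mice of that strain that were given distilled water. All mice entered the study at 10 weeks of age. KKAy is an inbred strain that carries the yellow allele of agouti and becomes obese and diabetic, and it came from another supplier, so strain, diet and supplier cannot be told apart in any comparison of KKAy with C57BL/6J mice. By the methods the mice were killed fed, although serum drawn immediately before is described there as fasting.

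Cholesterol leaves cells through membrane pumps of the ABC family, which load it onto high-density lipoprotein (HDL) particles or pass it into bile. In blood HDL is remodelled by an esterifying enzyme and a lipid transfer protein, and a receptor on hepatocytes takes its cholesteryl esters back up. The liver also exports lipid on very low-density lipoproteins (VLDL), and cholesterol that arrives by endocytosis is released from lysosomes. Several of these genes are targets of the liver X receptors (LXR), nuclear receptors that sense oxidised sterols.

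The promoters of 3 of these genes are described as background, and no signal was tested against them. The half-transporter genes Abcg5 and Abcg8 have start sites 110 bases apart on opposite strands (for 1 of 2 annotated Abcg8 starts). Abca1 is the pump that brings HDL into being. RefSeq windows of 300 bases around the start site (250 before it, 50 after it) were found for 6 of the 10 genes. The Abcg8 window (GRCm38.p6, chr17:84682871-84683170, plus strand) shares 209 bases with that of Abcg5, and all 3 matches to GATAA (both strands searched, so TTATC also counts), shown in capitals, lie in the shared stretch. Of 32851 promoter windows, 25.4% held at least 1 such match and 0.938% held 3 or more. The Abca1 window (GRCm38.p6, chr4:53159846-53160145, minus strand) held none, and its capitals mark 1 match to CACGTG, found in 7.15% of windows, and 1 to TATAAA, found in 13.6%. The Abcg8 window also held 1 TATAAA match, left in lower case. The window of the other annotated Abcg8 start (chr17:84676052-84676351, plus strand) held neither a GATAA nor a TATAAA match. The consensus of the LXR element was searched on both strands as AGGTCA, any 4 bases and AGGTCA again. No window of these 6 genes held this exact string, and 0.015% of all windows did. An element that departs from these letters would be missed, so the search cannot show that these promoters lack an LXR element. A match is a run of letters and not a shown binding site.
Abcg8: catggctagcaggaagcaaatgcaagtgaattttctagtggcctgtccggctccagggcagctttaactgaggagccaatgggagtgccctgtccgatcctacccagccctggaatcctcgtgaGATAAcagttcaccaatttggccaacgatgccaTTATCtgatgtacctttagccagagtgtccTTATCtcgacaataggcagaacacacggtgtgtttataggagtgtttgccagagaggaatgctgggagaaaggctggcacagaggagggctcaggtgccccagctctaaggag
Abca1: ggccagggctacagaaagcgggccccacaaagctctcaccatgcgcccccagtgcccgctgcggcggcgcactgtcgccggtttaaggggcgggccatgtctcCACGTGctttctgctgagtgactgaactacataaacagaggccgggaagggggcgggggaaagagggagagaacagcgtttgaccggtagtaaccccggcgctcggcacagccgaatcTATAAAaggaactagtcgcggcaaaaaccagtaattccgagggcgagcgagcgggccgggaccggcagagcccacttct

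Values are the deposited intensities after each array was scaled to a median of 1000, here called the signal, and each gene is read from its probe set with the highest mean. Signals of different probe sets have no common scale, so levels are compared between groups and not between genes. Groups were compared on log2 signal with limma across all genes, two-sided, and a gene is called where the Benjamini-Hochberg adjusted p is under 0.05. Standard errors of the log2 changes were 0.10 to 0.19 for the 9 genes, against a median of 0.28 over all genes. All 7 measured hepatocyte marker genes had a mean signal above the array median, and their summed signal was 2474612 to 3220754 in XKA-H livers, 2449696 to 3786535 in KKAy model livers and 2083276 to 3589744 in C57BL/6J livers. The 3 measured adipocyte markers (Adipoq, Lep and Retn) were all below the array median. In whole liver, fewer cells of a type and less RNA per cell cannot be told apart. Before scaling, the median of an array was between 136 and 161 in XKA-H livers, between 127 and 162 in KKAy model livers and between 146 and 182 in C57BL/6J livers.

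KKAy model livers stood apart from C57BL/6J livers in 8 of the 9 genes. Higher in KKAy model livers were 7 of them, the pumps Abca1, Abcg1, Abcg5 and Abcg8, the HDL receptor Scarb1 and the transfer proteins Pltp and Mttp, although the call of Scarb1 did not hold under the other scalings tried. Npc1, which releases cholesterol from lysosomes, was lower, and Lcat was not called. Over all genes, 13% were called in this comparison (10.6% higher and 2.43% lower). On the scaled signal the groups did not overlap in 10.6% of genes, against 8 of these 9. Each of the 8 had an exact two-sided permutation p of 0.00794, the smallest that 5 arrays against 5 can give. With the intensities as deposited, the 2 groups overlapped in Abcg1, Abcg8 and Scarb1, so that separation depended on the scaling. The scaling itself moved the middle of the distribution: all genes together had a median log2 change of 0.15 as scaled here, -0.04 with the intensities as deposited and 0.04 after quantile normalization. It also moved the split of calls over all genes, which was 1924 higher and 442 lower as scaled, 1137 and 1027 as deposited, and 1594 and 1108 after quantile normalization. The median log2 change of the 9 genes was 0.71, and changes of the 8 called genes are given below also relative to the 0.15 of all genes.

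XKA-H livers differed from KKAy model livers by an adjusted p under 0.05 in none of the 9 genes, against 0.176% of all genes (0.066% higher and 0.11% lower). At an unadjusted limma p under 0.05 there were 3 (Scarb1, Pltp and Npc1), against 8.61% of all genes. The Dunnett comparisons named in the methods passed 2 (Scarb1 and Pltp) before adjustment over genes, against 5.19% of all genes, and 0 after it. Of the 9 log2 changes 7 were negative and 2 positive, their median was -0.19, and the median of all genes was -0.06. Set against C57BL/6J livers, XKA-H livers were higher in 3 of the 9 genes (Abca1, Abcg5 and Mttp), against 7.48% of all genes called in either direction (5.53% higher and 1.95% lower), and the groups did not overlap in the same 3, against 7.03% of all genes. The 9 genes had a median log2 change of 0.39 there, against 0.10 over all genes. The comparisons share arrays, so the 3 sets of changes are not independent of one another.

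**Figure D1:**
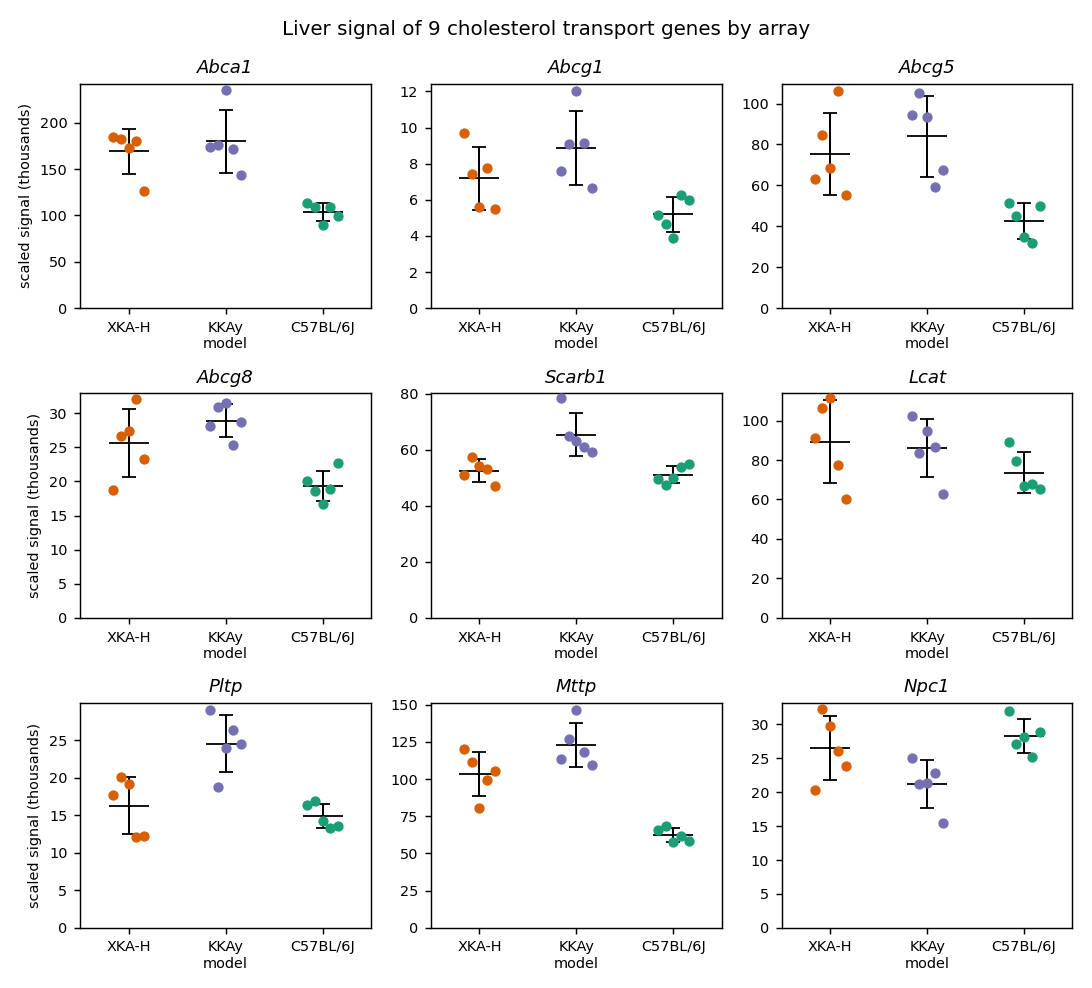
Scaled signal divided by 1000 (each array's median is then 1) of the 9 genes in XKA-H, KKAy model and C57BL/6J livers, with 1 point per array, a line at the group mean and bars of 1 SD (n = 5 per group); panels start at 0. Abca1, Abcg5 and Mttp separate both KKAy groups from C57BL/6J, while the XKA-H points of Scarb1 and Pltp overlap those of C57BL/6J.

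**Figure D2:**
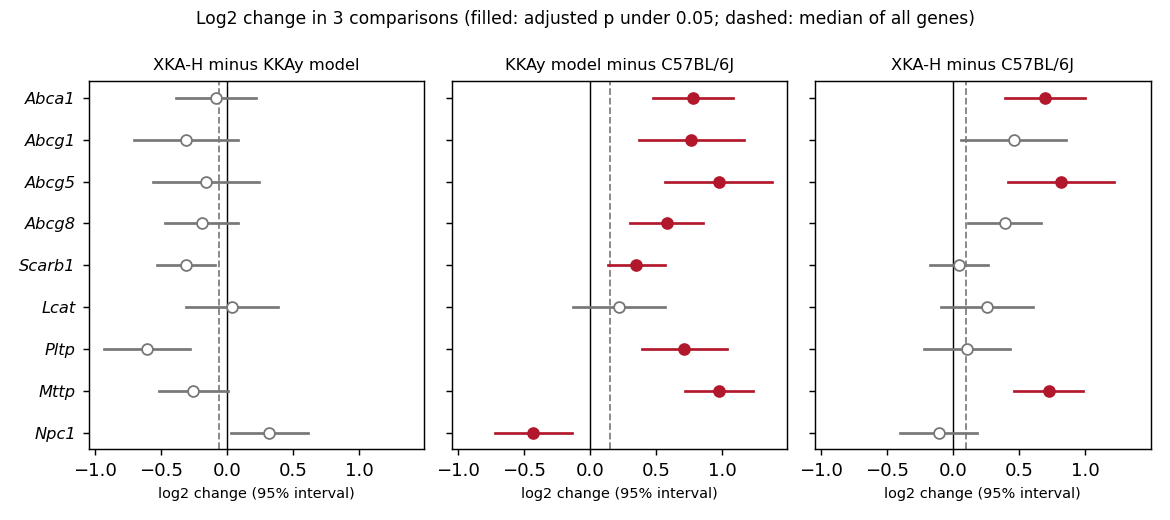
Log2 change of each gene with its 95% interval in the 3 comparisons, filled where the adjusted p is under 0.05, with a dashed line at the median log2 change of all genes (-0.06, 0.15 and 0.10). Filled points number 0, 8 and 3 from left to right.

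Abca1 encodes the pump that hands cholesterol and phospholipid to lipid-poor apolipoprotein A-I, the step that makes new HDL. Its signal, in order of replicate number, was 184446, 182648, 172569, 180248 and 126366 in XKA-H livers, 174214, 175744, 235095, 171526 and 143188 in KKAy model livers and 113214, 108781, 89844, 109267 and 99010 in C57BL/6J livers. Every array of both KKAy groups lay above every C57BL/6J array, while the XKA-H and KKAy model groups overlapped. The means were 169255 ± 24400 in XKA-H livers, 179953 ± 33593 in KKAy model livers and 104024 ± 9497 in C57BL/6J livers (SD, n = 5 each). The log2 change was 0.78 ± 0.14 (SE) in KKAy model over C57BL/6J, a 1.71-fold difference with a limma adjusted p of 0.00115, or 0.63 relative to all genes. Between XKA-H and KKAy model it was -0.08 with a 95% interval of -0.39 to 0.22 (limma adjusted p = 0.923), and it was 0.02 without KKAy model replicate 3, the highest array of its group, and also 0.02 without XKA-H replicate 5, the lowest of its own. XKA-H livers were above C57BL/6J livers by 0.69 ± 0.14 (SE), with a limma adjusted p of 0.00454.

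Abcg1 passes cholesterol on to HDL particles that are already formed. Its signals were 9684, 7424, 5588, 7762 and 5480 in XKA-H livers, 7584, 9106, 12025, 9118 and 6626 in KKAy model livers and 5166, 4661, 3886, 6274 and 5987 in C57BL/6J livers. All KKAy model arrays were above all C57BL/6J arrays, and the XKA-H group overlapped both. KKAy model livers were higher than C57BL/6J livers by 0.77 ± 0.19 (SE) on the log2 scale, a 1.70-fold difference (limma adjusted p = 0.0102), or 0.62 relative to all genes. This call was lost when all probe sets of a gene were averaged (limma adjusted p = 0.123). The change between XKA-H and KKAy model was -0.31 with a 95% interval of -0.71 to 0.09 (limma adjusted p = 0.693), and between XKA-H and C57BL/6J 0.46 with an interval of 0.06 to 0.85 (limma adjusted p = 0.176).

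Genes of the acute phase response, secreted by hepatocytes in inflammation, were also higher in KKAy model livers, with 5 of 7 called against 10.6% of all genes called higher, and their values stand beside those of Abca1 and Abcg1. Their summed signal was 677746 to 3361757 in XKA-H livers, 1361842 to 4752017 in KKAy model livers and 480835 to 829222 in C57BL/6J livers. Over the 15 arrays, each expressed as its deviation from its group mean, the mean deviation of the acute phase genes had a Pearson r of 0.738 with Abca1 and 0.737 with Abcg1, but -0.0447 with Abcg5 and -0.316 with Abcg8, and for the other 5 genes it was between 0.0483 and 0.597. With quantile normalization the 4 values of the pumps were 0.646, 0.647, -0.257 and -0.570. KKAy model replicate 3, highest of its group in both Abca1 and Abcg1, had the highest acute phase sum of all arrays. The part of the acute phase response in these changes was not tested.

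Abcg5 and Abcg8 form 1 pump together, which exports cholesterol and plant sterols into bile. Abcg5 signals were 63022, 84377, 68391, 106006 and 55441 in XKA-H livers, 94296, 105334, 93244, 58987 and 67733 in KKAy model livers and 51413, 44826, 34829, 31645 and 49788 in C57BL/6J livers. Both KKAy groups lay wholly above the C57BL/6J group, and they overlapped each other across nearly their whole range. Abcg5 was higher in KKAy model than in C57BL/6J livers by 0.97 ± 0.19 (SE) on the log2 scale, a 1.96-fold difference (limma adjusted p = 0.00191), or 0.83 relative to all genes. XKA-H livers were also higher than C57BL/6J livers, by 0.82 ± 0.19 (limma adjusted p = 0.0115). The difference of XKA-H from KKAy model was -0.16 with a 95% interval of -0.56 to 0.25.

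Abcg8 signals were 18720, 26600, 27361, 32107 and 23248 in XKA-H livers, 28164, 30943, 31409, 25262 and 28714 in KKAy model livers and 20074, 18534, 16701, 18830 and 22641 in C57BL/6J livers. Here the KKAy model arrays were again all above the C57BL/6J arrays, and 4 of the 5 XKA-H arrays were too. The remaining array, XKA-H replicate 1, read within the C57BL/6J range. Abcg8 was higher in KKAy model livers by 0.58 ± 0.13 (SE), a 1.50-fold difference (limma adjusted p = 0.00564), or 0.43 relative to all genes. The log2 change of 0.58 was smaller with the intensities as deposited (0.39, limma adjusted p = 0.0358) and after quantile normalization (0.38, limma adjusted p = 0.0467). XKA-H exceeded C57BL/6J by 0.39 ± 0.13, which was not called (limma adjusted p = 0.0863), but without XKA-H replicate 1 the change was 0.50 and was called (limma adjusted p = 0.0152), whereas without XKA-H replicate 4, the highest of its group, it was 0.30 (limma adjusted p = 0.226). XKA-H replicate 1 also had the highest acute phase sum of the XKA-H group, 3361757. Between XKA-H and KKAy model the Abcg8 difference was -0.19 with a 95% interval of -0.47 to 0.08 (limma adjusted p = 0.731).

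The deviations of Abcg5 and Abcg8 from their group means had a Pearson r of 0.717 over the 15 arrays. It was 0.528 with the intensities as deposited and 0.594 after quantile normalization. Among the other genes, 96 had a higher r with Abcg5 than Abcg8 did, and 111 had a higher r with Abcg8 than Abcg5 did. Points of such a correlation share the scaling of their array, and a shift of a whole array moves all genes together.

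Scarb1 encodes the receptor through which hepatocytes take cholesteryl ester from HDL. Its signals were 50881, 57557, 54384, 53218 and 46927 in XKA-H livers, 78541, 65006, 63180, 61148 and 59163 in KKAy model livers and 49703, 47315, 50006, 53700 and 54868 in C57BL/6J livers. Each KKAy model array exceeded every array of the other 2 groups, and the XKA-H and C57BL/6J arrays were intermixed. The means were 52593 ± 3977 in XKA-H livers, 65407 ± 7661 in KKAy model livers and 51118 ± 3100 in C57BL/6J livers (SD, n = 5 each). Scarb1 was higher in KKAy model than in C57BL/6J livers by 0.35 ± 0.10 (SE), or 1.27-fold (limma adjusted p = 0.0315), but this call was lost with the intensities as deposited (0.16, limma adjusted p = 0.273) and after quantile normalization (0.16, limma adjusted p = 0.356). Relative to all genes the change was 0.20. It was also lost in 6 of 15 fits that left out 1 array each, namely KKAy model replicates 1, 2 and 3 and C57BL/6J replicates 1, 2 and 3, with limma adjusted p of 0.0521 to 0.0982. XKA-H livers read lower than KKAy model livers by a log2 change of -0.31 ± 0.10 (SE), 0.806 times as high, with no overlap between the groups and an exact two-sided permutation p of 0.00794. Over all genes 1.42% did not overlap in that comparison, and the limma adjusted p was 0.337. Between XKA-H and C57BL/6J the difference was 0.04 with a 95% interval of -0.18 to 0.26, and it turned to -0.12 as deposited and -0.10 after quantile normalization.

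Lcat, the plasma enzyme that esterifies cholesterol on HDL, was the only measured gene of the set not called between KKAy model and C57BL/6J. Its signal ranged over 60374 to 111163 in XKA-H livers, 62827 to 102513 in KKAy model livers and 65064 to 88955 in C57BL/6J livers. The 3 groups overlapped, and replicate 5 was the lowest array of each KKAy group. The log2 change was 0.04 (95% interval -0.31 to 0.39) for XKA-H against KKAy model, 0.22 (-0.13 to 0.57) for KKAy model against C57BL/6J and 0.26 (-0.09 to 0.60) for XKA-H against C57BL/6J.

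Pltp transfers phospholipid between lipoproteins and enlarges HDL. Its signals were 17709, 20058, 19207, 12130 and 12269 in XKA-H livers, 29043, 18744, 23917, 26282 and 24458 in KKAy model livers and 16321, 16819, 14186, 13338 and 13538 in C57BL/6J livers. KKAy model arrays were all above C57BL/6J arrays, and 3 of the 5 XKA-H arrays were below all KKAy model arrays. The means were 16275 ± 3814 in XKA-H livers, 24489 ± 3784 in KKAy model livers and 14840 ± 1620 in C57BL/6J livers (SD, n = 5 each). Pltp was higher in KKAy model than in C57BL/6J livers by 0.71 ± 0.16 (SE), a 1.64-fold difference (limma adjusted p = 0.00404), or 0.57 relative to all genes. Of the 9 genes it had the largest difference of XKA-H from KKAy model, a log2 change of -0.61 ± 0.16 (SE) or 0.656 times as high. Its unadjusted limma p was 0.000913, the adjusted p was 0.144 and the exact permutation p was 0.0238, so it was not called over all genes. XKA-H and C57BL/6J differed by 0.11 with a 95% interval of -0.22 to 0.43, and by -0.05 as deposited and -0.04 after quantile normalization.

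Of 10 macrophage marker genes 9 had a negative log2 change between XKA-H and KKAy model livers, as Pltp did, and Marco did not. None of the 10 was called by limma and 5 had an unadjusted p under 0.05, against 8.61% of all genes, and their median log2 change was -0.57. In the same comparison the median was -0.57 over 4 lymphocyte markers, -0.52 over 3 neutrophil markers and -0.80 over 7 acute phase genes, with none of these genes called and 1, 1 and 0 at an unadjusted p under 0.05. It was also -0.56 over 3 adipocyte markers, but -0.08 over hepatocyte, -0.02 over sinusoidal endothelial, 0.05 over stellate cell and 0.10 over cholangiocyte markers. All 3 adipocyte markers had a mean below the array median, as did 3 of the 4 lymphocyte and 1 of the 3 neutrophil markers. The summed macrophage marker signal was 134001 to 260942 in XKA-H livers, 170665 to 432831 in KKAy model livers and 148816 to 267094 in C57BL/6J livers. Over all arrays the mean of every one of the 10 macrophage genes was above the array median. Marco, however, was under it in both KKAy groups, with means of 762 in XKA-H, 539 in KKAy model and 3434 in C57BL/6J livers. The part of these cell types in the Pltp values was not tested.

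Mttp loads triglyceride onto apolipoprotein B while VLDL is put together. Its signals were 120236, 111500, 80418, 99325 and 105457 in XKA-H livers, 113694, 126688, 146427, 118019 and 109700 in KKAy model livers and 65642, 68276, 57357, 61796 and 58181 in C57BL/6J livers. Every array of both KKAy groups was above every C57BL/6J array, and the KKAy groups overlapped. The means were 103387 ± 14984 in XKA-H livers, 122906 ± 14584 in KKAy model livers and 62250 ± 4704 in C57BL/6J livers (SD, n = 5 each). Mttp had the smallest p of the 9 genes, with a log2 change of 0.98 ± 0.12 (SE), or 1.97-fold, in KKAy model over C57BL/6J (limma adjusted p = 2.19e-05), and 0.83 relative to all genes. XKA-H livers were higher than C57BL/6J livers by 0.72 ± 0.12 (limma adjusted p = 0.000808). The difference of XKA-H from KKAy model was -0.25 with a 95% interval of -0.51 to 0.0048 (limma adjusted p = 0.594), with 3 of 5 XKA-H arrays below all KKAy model arrays.

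Npc1 ran the other way. This membrane protein moves cholesterol out of late endosomes and lysosomes. Its signals were 20321, 32280, 29746, 26046 and 23878 in XKA-H livers, 25020, 21147, 21390, 22905 and 15432 in KKAy model livers and 32007, 27181, 28180, 25196 and 28873 in C57BL/6J livers. All KKAy model arrays were below all C57BL/6J arrays, and 3 of the 5 XKA-H arrays were above all KKAy model arrays. In KKAy model livers Npc1 was lower than in C57BL/6J livers, with a log2 change of -0.43 ± 0.14 (SE), 0.742 times as high (limma adjusted p = 0.0484), and -0.58 relative to all genes. The call was lost in 11 of 15 fits that left out 1 array each (limma adjusted p up to 0.108, without KKAy model replicate 5) and remained only without KKAy model replicate 1 or XKA-H replicate 1, 2 or 5. With the intensities as deposited the change was -0.62 (limma adjusted p = 0.000646) and after quantile normalization -0.64 (limma adjusted p = 9.75e-05). XKA-H exceeded KKAy model by 0.32 ± 0.14 (limma adjusted p = 0.524, and 0.0340 unadjusted, with an exact permutation p of 0.0952), and its difference from C57BL/6J was -0.11 with a 95% interval of -0.40 to 0.18.

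More than 1 probe set was present for 5 of the 9 genes. Scarb1 had 3, and all of them read lower in XKA-H than in KKAy model livers, with log2 changes of -0.31, -0.51 and -0.31 and limma adjusted p over all 45037 probe sets of 0.425, 0.303 and 0.578. Over all probe sets 0.0799% were called in that comparison. In KKAy model over C57BL/6J, where 8.45% of all probe sets were called, they read 0.35, 0.61 and 0.30, of which only the 0.61 was called (limma adjusted p = 0.0152). Both Mttp probe sets were called there, the second with 0.68 (limma adjusted p = 0.00317). The second Pltp probe set, with means of 1047 in XKA-H, 1996 in KKAy model and 1095 in C57BL/6J livers, changed by -0.93 between XKA-H and KKAy model (limma adjusted p = 0.440) and by 0.85 between KKAy model and C57BL/6J (limma adjusted p = 0.130). The other probe sets of Abca1 and Abcg1 were dim, with signals of 59.7 to 2366, and none of them was called in either comparison.

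**Figure D3:**
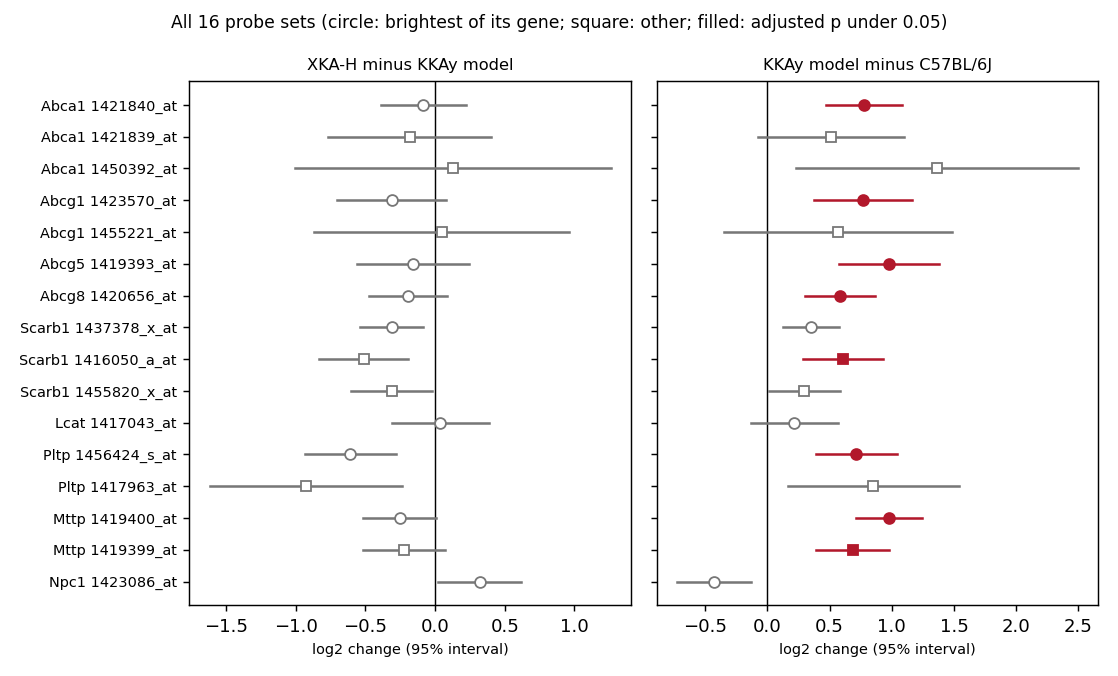
Log2 change with its 95% interval for all 16 probe sets in the fit over 45037 probe sets, XKA-H minus KKAy model on the left and KKAy model minus C57BL/6J on the right; circles mark the brightest probe set of a gene, squares the others, and filled symbols an adjusted p under 0.05. Probe sets of 1 gene point the same way except for 1 dim probe set each of Abca1 and Abcg1 on the left.

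Arrays differed from their group in many of these genes at once. XKA-H replicate 5 was the lowest of its group in 5 of the 9 genes, KKAy model replicate 5 in 6 and C57BL/6J replicate 3 in 4. The same 3 arrays, in that order, had the highest deposited medians of their groups, 161, 162 and 182. Their mean log2 deviation over the 9 genes was -0.27, -0.24 and -0.16 as scaled, -0.11, -0.03 and 0.03 as deposited, and -0.04, 0.05 and 0.00 after quantile normalization. In all 3 arrays the mean deviation was nearer to 0 where no median scaling was used. These arrays were picked on the scaled signal, and division by a high median lowers every gene of an array. That move towards 0 was thus partly fixed in advance, and the source of the array differences was not tested. Among all pairs of the 9 genes, Abca1 and Abcg1 had the highest r of deviations, 0.752 as scaled, 0.730 as deposited and 0.818 after quantile normalization. Lcat and Pltp were next as scaled, with 0.729, 0.601 and 0.580 under the 3 scalings, whereas Abca1 and Lcat had 0.718 as scaled but 0.385 and 0.242 under the other scalings.

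**Figure D4:**
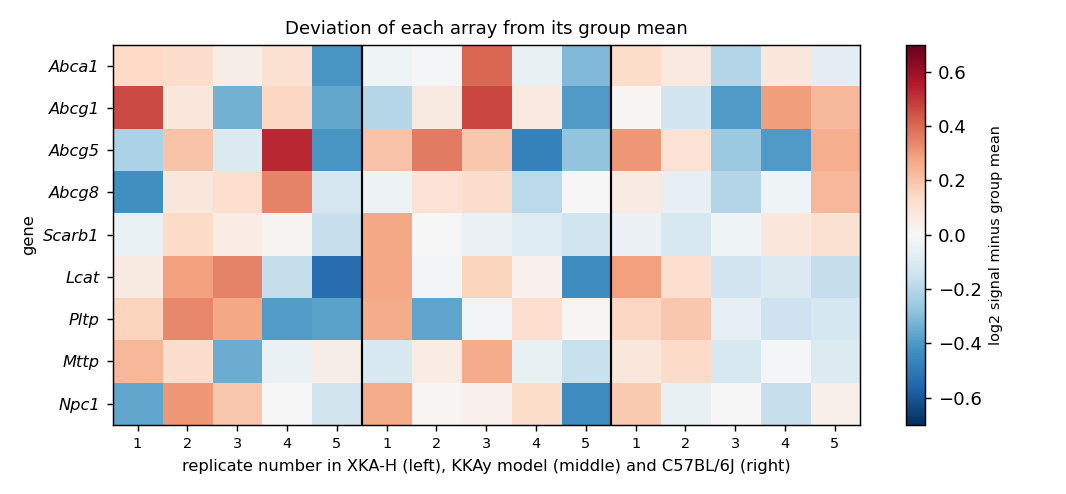
Deviation of each array's log2 signal from its group mean for the 9 genes, by replicate number in XKA-H (left), KKAy model (middle) and C57BL/6J (right); red is above the group mean and blue below it. Replicate 5 of XKA-H and of the KKAy model is blue in most rows, and Abca1 and Abcg1 are both red in KKAy model replicate 3.

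The genes most alike to each of the 9 in these deviations over 15 arrays were found as the 3 with the highest Pearson r. They were Jmjd1c (0.964), Rps29 and Hnrnpa2b1 for Abca1, and Jpt2 (0.938), Pdia4 and Dnajc3 for Abcg1. For Npc1 they were Zfyve21 (0.979), Vps35 and Smarcd2, for Lcat Ext1 (0.958), Atp6v0a2 and Vwa5a, and for Pltp Ltb (0.910), Vwf and Psmb7. Rps29 had an r of 0.942 with Abca1 as scaled but 0.348 after quantile normalization, whereas Jmjd1c kept 0.948 and Zfyve21 0.937. Abcg5 was nearest to Rrh (0.905), Manea and E330013P04Rik, and Abcg8 to Glp1r (0.881), Arsj and Lrrc56. Scarb1 was nearest to Psg16 (0.894), Marveld1 and Slc66a2, and Mttp to Glb1l3 (0.885), Gm11992 and Trat1. The first gene of each of these 4 had a mean signal under the array median. After quantile normalization the r of that first gene was 0.709 for Abcg5, 0.424 for Abcg8, 0.36 for Scarb1 and 0.366 for Mttp.

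Around these genes, the wider pathway was read from lists of named genes. Calls in these lists were read on the scaled signal only and were not checked on the other scalings. Among LXR and its targets, 2 of 9 measured genes were called in KKAy model over C57BL/6J, both higher, and this and the following counts stand against 10.6% of all genes called higher and 2.43% called lower. They were Srebf1, the regulator of fatty acid synthesis, and the coactivator Ncoa1. Srebf1 had a log2 change of 1.99 ± 0.24 (SE, limma adjusted p = 8.96e-06) and Ncoa1 one of 0.57 ± 0.18 (SE, limma adjusted p = 0.043). Among 10 genes of HDL and its remodelling only Pdzk1, the scaffold that holds the Scarb1 protein at the cell surface, was called, with 1.02 ± 0.14 (SE, limma adjusted p = 5.68e-05). Mean Pdzk1 signal was 20568 in XKA-H, 23240 in KKAy model and 11376 in C57BL/6J livers. The median log2 change was 0.37 in the LXR list and 0.13 in the HDL list, against 0.15 over all genes.

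On the secretion side, 3 of 12 VLDL assembly genes were higher in KKAy model livers and none lower. They included Apobec1, the editing enzyme of the apolipoprotein B transcript, with 0.84 ± 0.22 (SE), and Cideb, a lipid droplet protein of VLDL loading, with 0.74 ± 0.16 (limma adjusted p of 0.0163 and 0.00330). The fatty acid carrier and scavenger receptor Cd36 was the 1 gene of 6 called in lipoprotein uptake, with 2.24 ± 0.19 (SE, limma adjusted p = 1.79e-07). Its mean signal was 46487 in XKA-H, 74099 in KKAy model and 16066 in C57BL/6J livers. Of 7 measured genes for sterol esters and biliary lipid export only Atp8b1, a phospholipid flippase of the canalicular membrane, was called, with 0.77 ± 0.14.

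In lysosomal and intracellular sterol transport, where Npc1 belongs, 5 of 12 other genes were higher and 1 lower in KKAy model than in C57BL/6J livers. The higher genes included Gramd1b, a carrier of plasma membrane cholesterol, and Lipa, the lysosomal acid lipase (0.68 ± 0.22, limma adjusted p = 0.0428). Gramd1b was dim, with mean signals of 1221 in XKA-H, 2965 in KKAy model and 529 in C57BL/6J livers, so no size is given for its change. The lower gene was Stard4, a cytosolic sterol carrier, with a log2 change of -0.98 ± 0.21 (limma adjusted p = 0.00394). Genes of cholesterol synthesis and the SREBP2 program had the largest shift of the 7 lists, with 8 of 11 lower, none higher and a median log2 change of -1.01. Sqle and Idi1, both enzymes of the synthesis pathway, led with -3.78 ± 0.33 and -3.72 ± 0.26, although the mean Sqle signal of 785 in KKAy model livers was itself under the array median.

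No gene of any of the 7 lists was called by limma between XKA-H and KKAy model livers, although 8 of 67 had an unadjusted p under 0.05 against 8.61% of all genes, where list medians ran from -0.15 to 0.09 against -0.06 over all genes. Against C57BL/6J livers, where 5.53% of all genes were called higher and 1.95% lower, XKA-H livers had 1 of 9 LXR genes higher (Srebf1, 1.62), 1 of 10 HDL genes (Pdzk1, 0.85), 2 of 12 VLDL genes (Dgat2 with 0.59 and Apob with 0.56), 1 of 6 uptake genes (Cd36, 1.53) and 1 of 12 sterol transport genes (Osbpl2, 0.50). Biliary export had Atp8b1 higher by 0.70 and Abcb11, the bile salt pump, lower with a log2 change of -0.75 ± 0.16 (SE, limma adjusted p = 0.00625). Abcb11 means were 69395 in XKA-H, 86005 in KKAy model and 117702 in C57BL/6J livers. In cholesterol synthesis 7 of 11 were lower in XKA-H livers, led by Idi1 (-3.60) and Sqle (-3.40), with a list median of -0.94.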

How the data were processed

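Liver total RNA of 15 mice was hybridised to Affymetrix mouse arrays, 1 mouse per array. The intensity values that the authors deposited, 1 per probe set and array, are linear. ArrayTrack scaling to a median of 1000 is named in the methods, but the deposited columns have other medians, so each array was scaled to 1000 here. The probe summary and background correction are not given in the sources used here.

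The arrays held 45101 probe sets, of which 64 control sets were left out. Of the 45101, 34958 carried 1 gene symbol, 932 several and 9211 none. Symbols were updated through Entrez identifiers for 34741. Each of 18193 genes was read from its brightest probe set by the mean of the 15 arrays. Log2 signals were fitted in R 4.3.3 with limma 3.58.1 (all arrays, intensity trend, two-sided, Benjamini-Hochberg adjustment), a procedure tested on simulated data. Exact permutation tests over arrays served single genes. Intervals are 95%. The number of arrays limits the precision. Other software was the R package data.table, version 1.17.8, and pandas 2.3.3, with figures drawn with matplotlib 3.10.9 in Python 3.11.15.

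Groups came from the sample titles. The 10 genes, the pathway and marker lists and the tests were chosen with earlier results of these data known. The text names all 10 genes and their probe sets, up to 2 genes per pathway list, direction and comparison with the largest called change, and the 3 genes most alike to each of the 9. Marker genes named beside them mark cell types. The values of Abca1 and array deviations on other scalings were added after seeing the data. Alternatives concerned the scaling, how probe sets stand for a gene, dim genes, an added 100 before log2, the variance trend, array weights, the replicate block, the samples in the fit, the Dunnett comparisons of the methods and the removal of arrays.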

Additional observations from a re-analysis of the deposited data

Results flagged for a closer look

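In 1 of 27 sets of 5 arrays (9 genes in 3 groups), 1 array lay far from the other 4 by Dixon's criterion. It was Abca1 in XKA-H replicate 5, with a signal of 126366 against 172569 in the nearest array of its group, a gap of 0.824 of the group's whole range on the log2 scale. Chance flags about 1 in 20 such sets. On the deposited scale the same array read 20387 and the nearest one 23835, so it was the lowest there too, but the log2 gap was 0.520 of the range, under the critical value of 0.71.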

How the results depend on the processing

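The number of genes called over all genes depended on the processing. Between XKA-H and KKAy model livers it was 32, against 63 with the intensities as deposited, 113 after quantile normalization, 6 with the mean of all probe sets, 4 without the intensity trend, 52 with array weights and 19 with only the 2 groups compared. The Dunnett comparisons passed 944 genes before adjustment over genes and 0 after it, and 2 of the 9 cholesterol transport genes (Scarb1 and Pltp) before it. Leaving out 1 array gave 11 (XKA-H replicate 3 left out) to 54 (XKA-H replicate 1 left out). Between KKAy model and C57BL/6J livers it was 2366, against 3804 over every probe set and 3563 and 1379 with the Dunnett comparisons before and after adjustment, and 1676 to 2789 with 1 array left out. Between XKA-H and C57BL/6J livers it was 1361, against 828 with the mean of all probe sets, 2154 over every probe set and 892 without the intensity trend, and 963 to 1454 with 1 array left out. The split of calls in that comparison was 1006 higher and 355 lower as scaled, 703 and 780 as deposited and 1018 and 805 after quantile normalization. The cause of these differences was not tested.

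Of the 9 genes, the number called with 1 array left out was 0 to 0 between XKA-H and KKAy model, 6 to 8 between KKAy model and C57BL/6J and 3 to 4 between XKA-H and C57BL/6J. With both KKAy model replicate 3 and XKA-H replicate 1 left out the numbers were 0, 6 and 4. In KKAy model over C57BL/6J, Abca1, Abcg5, Abcg8, Pltp and Mttp were called in all alternatives run. Abcg1 was lost with the mean of all probe sets (limma adjusted p = 0.123) and with the adjusted Dunnett comparisons (adjusted p = 0.0569). Scarb1 and Npc1 were each lost also over every probe set (limma adjusted p of 0.0501 and 0.0673), without the intensity trend (0.0652 and 0.107) and with those same arrays left out together (0.0507 and 0.0531), and Npc1 with the mean of all probe sets (0.0707) and the adjusted Dunnett comparisons (0.143). In XKA-H over C57BL/6J, Abcg5 was lost without the intensity trend (limma adjusted p = 0.0502), Abcg8 was gained with array weights (0.0246), and Abca1 and Mttp were called in all alternatives run. The Dunnett comparisons were not run for XKA-H against C57BL/6J.

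The direction changed only for changes that were not called. Between XKA-H and C57BL/6J, Scarb1 was 0.04 as scaled but -0.12 as deposited and -0.10 after quantile normalization, and Pltp was 0.11 but -0.049 and -0.040. Between XKA-H and KKAy model, leaving out 1 array gave -0.16 to 0.019 for Abca1 and -0.070 to 0.17 for Lcat.

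Replicate numbers do not pair the mice. Same-numbered arrays of the XKA-H and KKAy model groups had correlations of deviations of -0.0447 to 0.0920, and 1 of 5 arrays correlated best with its own number. With the replicate number as a block, the genes called were 22, 2103 and 1195 over all genes and 0, 6 and 3 of the 9 in the order XKA-H against KKAy model, KKAy model against C57BL/6J and XKA-H against C57BL/6J. Scarb1 (limma adjusted p = 0.0623) and Npc1 (0.0715) were the calls among the 9 that the block removed. The number of arrays limits the precision, and no depth applies to these intensities.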
